A study of Homo sapiens with 3 samples.

Results

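Small structural noncoding RNAs were followed here in PANC-1, an established cell line from a human pancreatic carcinoma. They were chosen as rows of the deposited count table by name, namely the small nucleolar RNAs (SNORA and SNORD), the small Cajal body RNAs (SCARNA) and 6 longer RNAs (RN7SK, RMRP, RPPH1, RN7SL1, RN7SL2 and TERC), with 10 or more counts in at least 1 library. Of 51136 rows, 423 had such a name and 55 reached that count. The 55 comprised 30 C/D box snoRNAs, 20 H/ACA box snoRNAs, 1 scaRNA (SCARNA12) and 4 longer RNAs (RN7SK, RMRP, RN7SL1 and RN7SL2). The count table covers 3 libraries of total RNA, 1 per condition. One came from cells given no agent, here called control. One came from cells treated with ginsenoside Rg3, a ginseng saponin, at 200 μM for 24 h, and one from cells treated with tamoxifen (TAM), an antiestrogen, at 50 μM for 24 h. The study sequenced them to learn how gene expression changes under each drug. No vehicle is named in the labels, and nothing says whether a library held 1 culture or several, so no difference below has a replicate check.

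These RNAs do not encode protein. They work as the RNA part of ribonucleoprotein particles. C/D box snoRNAs bind fibrillarin and mostly guide 2'-O-methylation of ribosomal RNA, and H/ACA box snoRNAs bind dyskerin and mostly guide pseudouridylation. In human cells most snoRNAs are cut out of introns of protein-coding or noncoding host genes, which RNA polymerase II transcribes. RN7SK (7SK RNA) holds the elongation factor P-TEFb in an inactive complex, RMRP is the RNA of RNase MRP, which cuts precursor ribosomal RNA, and RN7SL1 and RN7SL2 are copies of the RNA of the signal recognition particle, which brings ribosomes to the endoplasmic reticulum. RNA polymerase III transcribes these 4 from genes of their own. None of the 4 carries a long poly(A) tail, and most snoRNAs are shorter than the RNAs that RNeasy columns, used here to clean the RNA, retain well. The part of either in the counts below was not tested.

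The sequences of the members on which the description turns are given from GENCODE 29 on GRCh38, the build named in the submitters' processing notes. The first pair are longer RNAs that stood above control in the TAM library. RN7SK and RMRP are written without capitals, RN7SK as the first 300 of its 328 bases. RN7SK, chr6:52995621-52995920, plus strand: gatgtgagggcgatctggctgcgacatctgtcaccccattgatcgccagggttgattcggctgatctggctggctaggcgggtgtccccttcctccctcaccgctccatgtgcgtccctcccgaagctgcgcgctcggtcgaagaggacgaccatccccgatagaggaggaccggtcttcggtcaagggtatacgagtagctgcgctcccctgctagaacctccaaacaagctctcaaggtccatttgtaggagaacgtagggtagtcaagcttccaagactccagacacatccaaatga
RMRP, chr9:35657751-35658018, minus strand: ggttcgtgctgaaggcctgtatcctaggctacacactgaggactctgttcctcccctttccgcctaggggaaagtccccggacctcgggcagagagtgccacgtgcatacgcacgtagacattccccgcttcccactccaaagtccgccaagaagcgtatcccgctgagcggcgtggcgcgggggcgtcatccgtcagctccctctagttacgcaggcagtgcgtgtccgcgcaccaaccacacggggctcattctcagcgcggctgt

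The next 3 are H/ACA box snoRNAs whose counts were highest in the Rg3 library. SNORA8 and SNORA40 lie in the gene TAF1D, and SNORA81 lies in EIF4A2. Capitals mark the H box, searched as ANANNA near the middle of the RNA, and the ACA box, searched within the last 8 bases. No ACA was found in that window of SNORA40 and SNORA81 as annotated.
SNORA8, chr11:93732361-93732499, minus strand: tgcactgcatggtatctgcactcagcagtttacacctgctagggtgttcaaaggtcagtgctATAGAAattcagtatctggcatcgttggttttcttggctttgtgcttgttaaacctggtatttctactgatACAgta
SNORA40, chr11:93735111-93735236, minus strand: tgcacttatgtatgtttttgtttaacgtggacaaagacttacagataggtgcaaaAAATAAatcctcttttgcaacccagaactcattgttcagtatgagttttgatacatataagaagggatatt
SNORA81, chr3:186786675-186786852, plus strand: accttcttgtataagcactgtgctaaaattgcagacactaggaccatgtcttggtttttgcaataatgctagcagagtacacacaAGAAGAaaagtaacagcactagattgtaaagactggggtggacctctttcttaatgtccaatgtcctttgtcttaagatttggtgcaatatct

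SNORA10 and SNORA64 share the host gene RPS2 and differed from each other in the Rg3 library. They are shown with the same boxes in capitals.
SNORA10, chr16:1962334-1962466, minus strand: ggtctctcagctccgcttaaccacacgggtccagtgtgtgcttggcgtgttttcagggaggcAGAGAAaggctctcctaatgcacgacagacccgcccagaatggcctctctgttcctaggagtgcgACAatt
SNORA64, chr16:1962973-1963106, minus strand: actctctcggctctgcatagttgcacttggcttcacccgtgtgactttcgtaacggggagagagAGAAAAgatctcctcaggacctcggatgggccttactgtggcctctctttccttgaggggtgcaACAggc

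SNORD36A is a C/D box snoRNA from a ribosomal protein gene that was above control with Rg3 while its host was below it. Capitals mark the core of the C box, TGATG in the first 25 bases, and the D box, CTGA in the last 25 bases.
SNORD36A, chr9:133350456-133350528, plus strand: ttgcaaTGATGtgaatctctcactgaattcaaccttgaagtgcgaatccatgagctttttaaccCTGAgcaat

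Both C and D boxes were found in 24 of the 26 SNORD members with a GENCODE sequence (92.3%), beside 225 of 275 annotated SNORD RNAs (81.8%). Both H and ACA boxes were found in 17 of the 20 SNORA members (85.0%), beside 118 of 142 annotated SNORA RNAs (83.1%). The search read the given strand alone, and the letters of one pair of boxes do not overlap those of the other. The C/D pair stood in 3 of the 142 SNORA RNAs (2.11%) and the H/ACA pair in 2 of the 275 SNORD RNAs (0.727%). Of the 55 members, 54 matched a RefSeq symbol and 51 a GENCODE entry. The row named SNORD116, without a copy number, matched none. Sequences of SNORD29, SNORD31 and SNORD80 are not shown.

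Total counts were 11300766 for control, 12861693 for Rg3 and 11321442 for TAM. A row at 0 could hold up to 3 counts of such a total. The 55 RNAs took 2172, 3255 and 2854 of them. That is 192 CPM (counts scaled to a library total of 1e6) in control (95% exact interval 184 to 200.5), 253 with Rg3 (244 to 262) and 252 with TAM (243 to 262). These intervals, and those of all fold changes below, cover counting error only. All 6 epithelial markers were detected in each library, and CDH1, which encodes E-cadherin, was the lowest with TAM at 76, 39 and 5 counts in control, Rg3 and TAM. Of 10 markers of leukocytes, endothelium, fibroblasts, islets and acini, 9 had at most 3 counts, and the collagen gene COL1A1 had 1853, 1005 and 734. In bulk RNA, a change in the cells present cannot be told apart from a change in RNA per cell.

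Most of the 55 RNAs were rare. In counts per library, 11 reached 50 or more in at least 1 library, 12 reached 20 to 49 and 32 stayed between 10 and 19. In every library 10 or more counts were found for 21 of them. The threshold was passed in the Rg3 library alone by 13, in the TAM library alone by 5 and in the control library alone by 4. Just inside it, 8 RNAs had a highest count of exactly 10, for example SNORD84 with 10, 9 and 9 counts in control, Rg3 and TAM, and SNORD29 with 2, 10 and 2. No row had a highest count of 9. Of the other rows with these names, 199 had no count in any library and 169 had 1 to 9 at most. These included RPPH1, the RNA of RNase P, with 4, 0 and 5 counts, and TERC, the RNA of telomerase, with 0, 1 and 0. The annotated RNAs were 64 to 332 bases long and 44 of them were under 200 bases.

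Per length, the RNA of the signal recognition particle was the most abundant in each library among the 54 members with a known length. RN7SL1 stood at 220, 303 and 315 RPKM (counts per kilobase of RNA and per 1e6 counts of the library) in control, Rg3 and TAM, and RN7SL2 at 101, 169 and 198. In control they were followed by SNORA70 at 84.6, SNORD96A at 72.5, SNORD86 at 62.8 and SNORD48 at 31.8. RN7SL1 and RN7SL2 together made up 49.9% of the counts of the 55 RNAs in control, 55.8% with Rg3 and 60.9% with TAM. By counts alone, only RN7SL1 and RN7SL2 exceeded the SNORD116 row in control, and the length behind that row is not known.

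**Figure D1:**
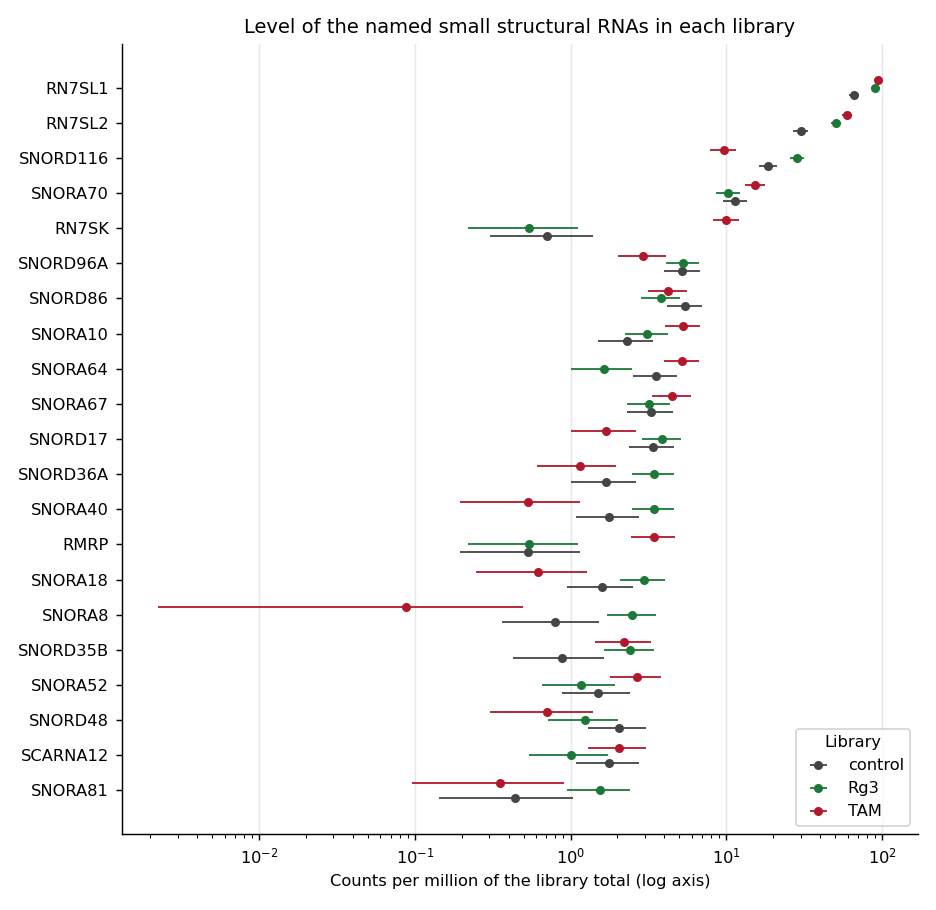
Level of the 21 named RNAs in the control (grey), Rg3 (green) and TAM (red) libraries, in CPM on a log axis; bars are exact 95% Poisson intervals of the count. RN7SK stands at 8, 7 and 113 counts and RMRP at 6, 7 and 39, with the TAM point apart from the other two, while SNORA8, SNORA18 and SNORA40 have their lowest point with TAM and their highest with Rg3.

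For each comparison a row was compared when it had 10 or more counts in either library, and it was called when the fold passed 1.5 upwards or 0.67 downwards after TMM scaling, a scaling that centres the bulk of genes. With Rg3, 50 of the 55 RNAs were compared with control. Of these, 19 (38.0%) were higher and 12 (24.0%) were lower, beside 25.0% higher and 19.5% lower over all 16487 genes compared. Of the 19, 14 had under 10 counts in control, so that they were compared only because they were high with Rg3. Of the 12, 5 had under 10 counts with Rg3 and were compared only through control. Where the 95% counting interval also had to exclude no change, 6 were higher and 4 were lower, beside 20.9% and 16.2% of all genes. The median log2 fold change was 0.10, beside 0.04 over all genes. C/D box snoRNAs had a median of 0.29 (29 compared, 12 higher and 6 lower) and H/ACA box snoRNAs one of -0.10 (18 compared, 6 higher and 5 lower). Over the 36 RNAs with a mean of 10 or more counts in the 3 libraries, the median of all was -0.09 and that of 16 C/D box snoRNAs -0.09, so that both directions depend on this filter. With the trend on GC content removed, the H/ACA median was 0.25. When libraries were scaled by their totals alone, the median of all genes moved to 0.18 and that of the H/ACA class to 0.04, so that its direction depends on the scaling. The split of calls was then 20 higher and 7 lower, beside 5180 higher and 2321 lower of all 16487 genes.

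With TAM, 42 RNAs were compared with control. Of these, 13 (31.0%) were higher and 11 (26.2%) lower, beside 17.4% and 23.8% of all 16079 genes compared. With the counting interval, 11 were higher and 4 lower, beside 14.4% and 19.0% of all genes. The 4 longer RNAs were all higher, and the median of their log2 fold changes was 2.05. Of these, RN7SK and RMRP are members, and were compared, only through their counts with TAM. RPPH1 and TERC, the other longer RNAs chosen by name, reached 10 counts in no library, so that this median is shaped by the filter. The H/ACA class had a median of 0.36 (17 compared, 6 higher and 4 lower) and the C/D class one of -0.13 (20 compared, 3 higher and 7 lower). The median of all 42 was 0.16, beside -0.02 over all genes. With library totals the latter became -0.23, the median of the RNAs -0.04 and the split 9 higher and 13 lower. Of all 16079 genes, 1576 were higher and 5259 lower with that scaling. Of the 13 higher RNAs, 5 had under 10 counts in control, and of the 11 lower ones, 8 had under 10 with TAM. The class medians kept their signs under library totals, at 1.84 for the longer RNAs, 0.15 for H/ACA and -0.34 for C/D.

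TAM was set against Rg3 directly over 51 RNAs. Of these, 17 were higher with TAM and 16 were lower, beside 30.0% and 35.4% of all 16493 genes. With the counting interval 10 were higher and 7 lower, beside 27.1% and 31.1%. Of the 17 higher RNAs, 7 had under 10 counts with Rg3, and of the 16 lower ones, 13 had under 10 with TAM. These were compared only through the library where they were high. The H/ACA class had a median of 0.33 (9 higher and 5 lower of 19) and the C/D class one of -0.47 (5 higher and 11 lower of 27). Over the 36 RNAs with a mean of 10 or more counts in the 3 libraries, the median of all moved from -0.05 to 0.27. That of 16 C/D box snoRNAs was then -0.12, so that its size depends on this filter. With library totals the H/ACA median was -0.02, the C/D median -0.82 and the split 11 higher and 21 lower. Of all 16493 genes, 3105 were higher and 7499 lower with that scaling. Both drugs are set against the same control library above, so that the 2 comparisons are not independent.

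Summed over members, C/D box snoRNAs had 636, 912 and 446 counts in control, Rg3 and TAM. H/ACA box snoRNAs had 418, 501 and 494, and the longer RNAs 1098, 1829 and 1891. The TAM library thus held the fewest counts of C/D box snoRNAs and the most of the longer RNAs. The log2 fold change of the C/D sum with TAM was -0.31 (95% interval -0.48 to -0.13). The row SNORD116 alone gave 210, 368 and 109 of the C/D counts, with a log2 fold change of -0.74 with TAM. What that row counts is not known, and the median over the 20 C/D box snoRNAs compared with TAM was -0.13. The sum therefore leans on this row and does not describe the class as a whole.

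RN7SK had 8 counts in control, 7 with Rg3 and 113 with TAM. The TAM library was thus far above the other two, which differed by 1 count. The log2 fold change was 4.03 with TAM against control (95% interval 3.00 to 5.27) and 4.55 against Rg3 (3.46 to 5.89). With control and Rg3 both under 10 counts, the pair was not compared. RN7SK is a member only through its count with TAM, so that the intervals above are no separate check of a rise there. Every 50-base stretch of RN7SK also occurs in other annotated entries, among them RF00100, an entry at its own place, and copies named RN7SKP. The share that occurs in copies named RN7SKP alone was not computed. The 10 rows of the table with such a name had 0 counts in all 3 libraries.

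The proteins that bind RN7SK did not move one way at the level of their mRNA. Of 7 genes of the 7SK particle and P-TEFb, 3 were higher with TAM and 2 lower, and with Rg3 2 were higher and 1 lower. The shares over all genes were 17.4% and 23.8% with TAM, and 25.0% and 19.5% with Rg3. MEPCE, which caps the RNA, had 731, 682 and 1197 counts (log2 0.92 with TAM). LARP7, which holds its 3' end, had 108, 262 and 53 (log2 0.95 with Rg3 and -0.82 with TAM). Of the inhibitors of P-TEFb, HEXIM2 had 76, 48 and 162 (log2 1.298 with TAM), and HEXIM1 had 948, 1121 and 559, with -0.56 not past the fold. The kinase CDK9 had 524, 478 and 757 counts (log2 0.74 with TAM) and its cyclin CCNT1 had 220, 463 and 101 (log2 -0.92). MEPCE, HEXIM2 and CDK9 were thus on the side of RN7SK in the TAM library, and LARP7 and CCNT1 on the other.

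RMRP had 6, 7 and 39 counts and, like RN7SK, is a member only through its count with TAM. The TAM library was again apart, with a log2 fold change of 2.91 against control (95% interval 1.66 to 4.44) and 3.01 against Rg3 (1.83 to 4.42). None of its 50-base stretches occurs in another annotated gene. Of 11 genes for proteins of RNase MRP and the related RNase P, 5 were higher with TAM and 0 lower, and the median log2 value was 0.47. Over all genes compared with TAM, 17.4% were higher and 23.8% lower, with a median of -0.02. With Rg3, 0 of the 11 were higher and 2 lower, with a median of 0.05, beside 25.0%, 19.5% and 0.04 over all genes. RPP25 had 768, 722 and 1261 counts (log2 0.92 with TAM), and RPP25L had 505, 294 and 880, lower with Rg3 (-1.11) and higher with TAM (1.01). POP7 had 806, 636 and 1082 counts, lower with Rg3 (-0.67) and higher with TAM (0.63). RPPH1, which shares several of these proteins, had too few counts to compare.

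RN7SL1 had 744 counts in control, 1165 with Rg3 and 1068 with TAM. The log2 fold change was 0.32 with Rg3 (95% interval 0.19 to 0.45), short of the fold, and 0.73 with TAM (0.59 to 0.86). RN7SL2 had 340, 650 and 671 counts and was past the fold with both drugs, at 0.61 with Rg3 (0.42 to 0.80) and 1.19 with TAM (1.00 to 1.38). Both treated libraries were therefore above control for both copies, which are 98.3% identical over 300 aligned columns. Other rows of the same family followed, RN7SL4P with 93, 186 and 178 counts, RN7SL5P with 177, 368 and 285 and RN7SL3 with 60, 87 and 92. Every 50-base stretch of RN7SL1 and 86.5% of those of RN7SL2 occur in other entries. For RN7SL1 these include AL139099.4, another entry at its own place, and the share without it was not computed. Reads from a stretch shared between rows cannot be assigned to one row by sequence.

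The genes for proteins of the signal recognition particle did not all follow the order of the RNA. Of 6 genes, 4 were higher with Rg3 and 0 lower, beside 25.0% and 19.5% of all genes. With TAM 0 of the 6 were higher and 2 lower, beside 17.4% and 23.8%. SRP9 had 579, 1393 and 397 counts (log2 0.94 with Rg3), SRP72 464, 976 and 253 (0.75 with Rg3 and -0.67 with TAM), and SRP54, which binds the signal peptide, 394, 822 and 225 (0.73 and -0.60). SRP14 had 2536, 3384 and 2923 counts and was within the fold in both, at 0.09 and 0.41, in the order of RN7SL1. The median of the 6 was 0.74 with Rg3, and 0.16 once the trend on GC content was removed.

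Of 31 genes of RNA polymerase III and its factors, 8 were higher with Rg3 and 3 lower, beside 25.0% and 19.5% of all genes. With TAM 3 were higher and 4 lower, beside 17.4% and 23.8%. The medians were -0.03 with Rg3 and 0.15 with TAM. BDP1, a part of initiation factor TFIIIB, had 184, 429 and 48 counts (log2 0.89 and -1.73). SSB, the La protein that binds new polymerase III transcripts, had 649, 1301 and 395 counts (0.68 and -0.51). U3, a C/D box snoRNA that RNA polymerase II transcribes from genes of its own, is counted as SNORD3A and SNORD3D. SNORD3A had 30, 33 and 18 counts, with a log2 fold change of -0.53 with TAM (95% interval -1.46 to 0.36). SNORD3D had 4, 12 and 5. SNORD3A was thus below control with TAM in value, where the 4 polymerase III transcripts were above it, and SNORD3D had too few counts there to compare.

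**Figure D2:**
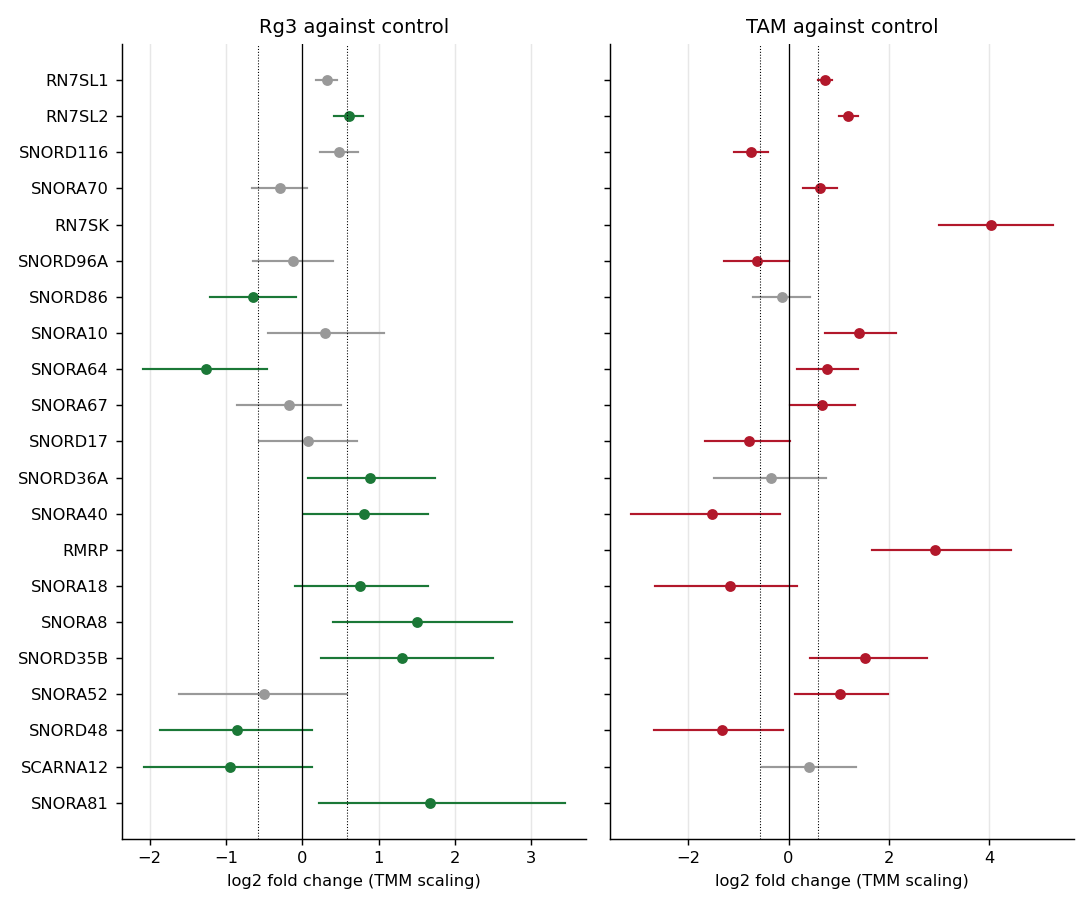
Log2 fold change of the named RNAs compared with control, for Rg3 (left) and TAM (right) after TMM scaling, with 95% counting intervals as bars; coloured points are past the fold, grey points are not, and dotted lines mark 1.5-fold and 0.67-fold. RN7SK at 4.03 and RMRP at 2.91 lie farthest to the right with TAM, and no bar reflects variation between cultures.

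SNORA8, SNORA18 and SNORA40 share one host, TAF1D, a subunit of the RNA polymerase I selectivity factor. SNORA8 had 9, 32 and 1 counts in control, Rg3 and TAM, SNORA18 had 18, 38 and 7, and SNORA40 had 20, 44 and 6. Each was highest with Rg3 and lowest with TAM. With Rg3 the log2 fold changes were 1.503 for SNORA8 (95% interval 0.40 to 2.76), 0.75 for SNORA18 (-0.09 to 1.65) and 0.81 for SNORA40 (0.02 to 1.65). With TAM they were -1.16 for SNORA18 (-2.66 to 0.17) and -1.53 for SNORA40 (-3.14 to -0.16). SNORA8 was not compared with control there, both libraries being under 10 counts. It is a member only through its count with Rg3.

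The 3 RNAs together had 47, 114 and 14 counts and TAF1D had 97, 233 and 43. Their summed log2 fold change was 0.95 with Rg3 (95% interval 0.45 to 1.47), beside 0.94 for TAF1D, and -1.54 with TAM (-2.52 to -0.66), beside -0.97. Per 100 counts of the host they stood at 48.5, 48.9 and 32.6. Every 50-base stretch of the 3 RNAs is also part of an annotated transcript of TAF1D, so that reads of the RNA and of the unspliced host cannot be told apart by sequence. SNORA40, whose GC content is 32.5%, had a log2 fold change of -0.12 with Rg3 once the GC trend over genes was removed, so that its direction turned, and SNORA18 fell short of the fold at 0.48.

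SNORA81 and SNORA63, in the translation factor gene EIF4A2, were both highest with Rg3 and reached 10 counts in that library alone. SNORA81 had 5, 20 and 4 counts and SNORA63 had 9, 18 and 5. The log2 fold change with Rg3 was 1.67 for SNORA81 (95% interval 0.22 to 3.44) and 0.67 for SNORA63 (-0.56 to 2.01). Their sum of 14, 38 and 9 gave 1.11 with Rg3 (0.20 to 2.11), beside 0.71 for EIF4A2, which had 1118, 2295 and 1059 counts. Both RNAs are members only because they were high with Rg3, so that this interval is no separate check of a rise there. The microRNA precursor MIR1248 is read from the same place as SNORA81 and had 1, 0 and 0 counts.

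SNORA10 and SNORA64 lie within RPS2, the gene of a protein of the small ribosomal subunit. SNORA10 had 26, 40 and 60 counts and SNORA64 had 40, 21 and 59. Both were highest with TAM, and in the Rg3 library one was above control in counts and the other below it. With TAM the log2 fold change was 1.41 for SNORA10 (95% interval 0.73 to 2.14) and 0.77 for SNORA64 (0.16 to 1.38). With Rg3 it was 0.29 for SNORA10 (-0.45 to 1.07) and -1.26 for SNORA64 (-2.09 to -0.46), and these intervals do not overlap. RPS2 had 13808, 12447 and 18595 counts, that is -0.48 with Rg3 and 0.64 with TAM. With library totals SNORA64 fell short of the fold with TAM, at 0.56. The values of RPS2 lay outside the intervals of SNORA10 in both comparisons with control and inside those of SNORA64. For TAM against Rg3 this was reversed. There RPS2 at 1.11 lay inside the interval of SNORA10 (0.52 to 1.73) and outside that of SNORA64 (1.28 to 2.82). The sum of 66, 61 and 119 had a log2 fold change of 1.06 with TAM (0.61 to 1.51), an interval that reaches down to the value of the host.

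SNORD35B and SNORD36A were C/D box snoRNAs past the fold upwards with Rg3. SNORD35B had 10, 31 and 25 counts, with log2 fold changes of 1.31 with Rg3 (95% interval 0.24 to 2.50) and 1.53 with TAM (0.42 to 2.75). SNORD36A, in the ribosomal protein gene RPL7A, had 19, 44 and 13 counts, with 0.88 for Rg3 (0.08 to 1.74) and -0.34 for TAM (-1.48 to 0.75). RPL7A had 9136, 7689 and 10802 counts, that is -0.58 and 0.45. With Rg3 the value of RPL7A lay outside the interval of SNORD36A. With the GC trend removed, SNORD36A stood at 0.25 with Rg3, short of the fold.

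Other H/ACA box RNAs that the naming rule took were higher with TAM, unlike SNORA18 and SNORA40 above. SNORA70, in the ribosomal protein gene RPL10, had 129, 132 and 173 counts. Its log2 fold change with TAM was 0.63 (95% interval 0.29 to 0.97), beside 0.57 for RPL10. SNORA67, in EIF4A1, had 37, 41 and 51 counts and 0.67 with TAM (0.03 to 1.32). SNORA52, in RPLP2, had 17, 15 and 30 counts and 1.03 with TAM (0.12 to 1.98), beside 0.08 for RPLP2. With libraries scaled by their totals, SNORA70 fell short of the fold at 0.42 and SNORA67 at 0.46, and SNORA52 stood at 0.82. The scaRNA SCARNA12, which guides modification of spliceosomal RNA in Cajal bodies, had 20, 13 and 23 counts, with -0.95 for Rg3 (-2.08 to 0.13), or -0.37 with the GC trend removed, and 0.41 for TAM (-0.52 to 1.35).

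Several C/D box RNAs were lowest with TAM, unlike SNORD35B above. SNORD96A, in RACK1 (counted as GNB2L1), had 59, 68 and 33 counts and a log2 fold change of -0.63 with TAM (95% interval -1.29 to 0.01), while its host had 0.36. SNORD17, in an intron of SNX5, had 38, 50 and 19 counts and -0.79 with TAM (-1.67 to 0.04), beside 0.17 for the host. SNORD48, in C6orf48, had 23, 16 and 8 counts, with -0.85 for Rg3 (-1.87 to 0.13) and -1.32 for TAM (-2.69 to -0.11), the former -0.33 with the GC trend removed, beside -0.05 and 0.50 for the host. For all 3 the TAM library was the lowest, and the TAM value of the host lay outside the interval of the snoRNA. SNORD86, in NOP56, which encodes a core protein of the C/D particle itself, had 61, 49 and 48 counts, with -0.64 for Rg3 (-1.22 to -0.08) and -0.14 for TAM. The Rg3 value fell short of the fold at -0.50 with library totals and was -0.05 with the GC trend removed.

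The genes of the particle proteins are given for comparison. Beside each list below stand the shares over all genes, 25.0% higher and 19.5% lower with Rg3, and 17.4% and 23.8% with TAM. Of the 4 core C/D proteins, 1 was higher and 1 lower with Rg3 and 0 passed the fold with TAM. The methyltransferase fibrillarin (FBL) had 62398, 49808 and 54352 counts (log2 -0.65 with Rg3) and NOP58 had 692, 1468 and 468 (0.76 with Rg3). Of 6 genes of H/ACA proteins, 0 passed the fold with Rg3 and 1 was higher with TAM, NHP2 with 2473, 2139 and 3579 counts (0.74). The pseudouridine synthase gene DKC1 had 2042, 2626 and 2478 counts and was within the fold in both. Of 10 assembly factors, 2 were higher and 3 lower with Rg3, and 0 were higher and 3 lower with TAM. RUVBL2 had 5591, 4221 and 6265 counts (log2 -0.73 with Rg3) and RPAP3 had 153, 446 and 75 (1.22 and -0.82). Of 14 genes of the nuclear exosome, which trims snoRNA ends, 5 were higher and 1 lower with Rg3 and 2 were higher and 2 lower with TAM. Of 5 genes of telomerase and the Cajal body, 0 were higher and 3 lower with Rg3 and 0 were higher and 1 lower with TAM.

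**Figure D3:**
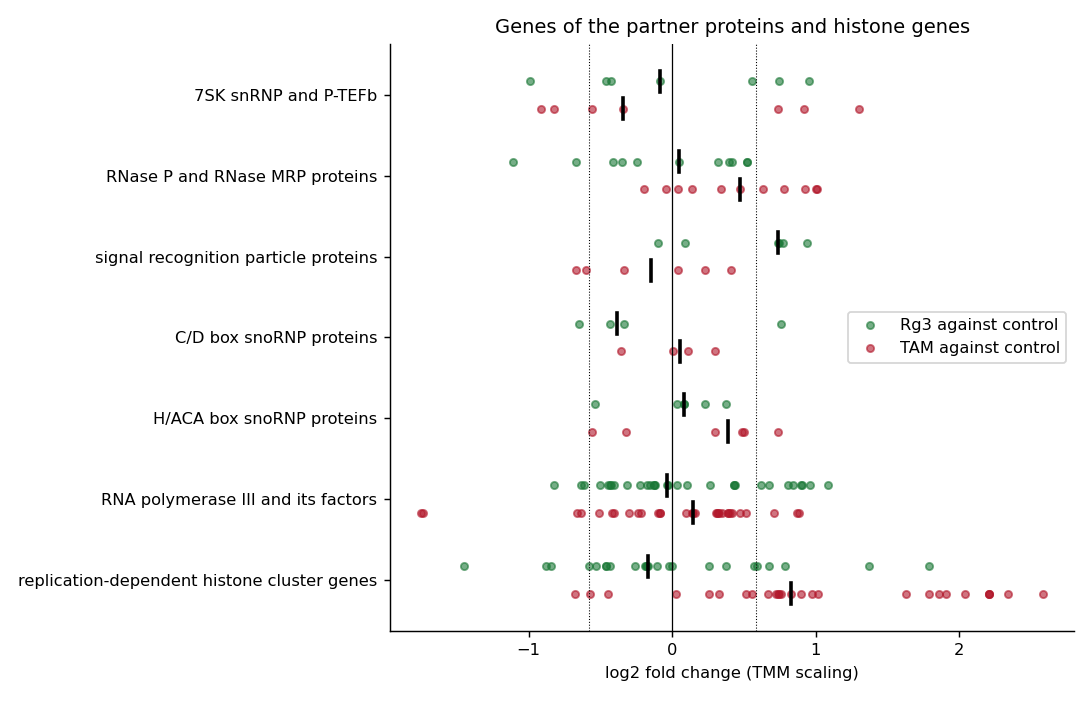
Log2 fold change of each compared gene of the partner protein lists, of RNA polymerase III and of the replication-dependent histone genes, with Rg3 (green) and TAM (red) against control; black ticks are list medians and dotted lines mark 1.5-fold and 0.67-fold. The signal recognition particle genes have a median of 0.74 with Rg3, and the histone genes one of 0.82 with TAM.

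Other RNAs without a long poly(A) tail were counted beside these. Of 27 compared genes of the replication-dependent histone clusters, whose mRNAs mostly end in a stem-loop, 19 were higher with TAM and 1 lower, and the median log2 value was 0.82, beside 17.4% higher and 23.8% lower over all genes compared. Of the 19, 9 had under 10 counts in control and were compared only because they were high with TAM. With Rg3, 5 of 24 were higher and 4 lower, beside 25.0% and 19.5% of all genes, with a median of -0.17. HIST1H1C had 467, 391 and 1252 counts and HIST1H2BK had 962, 1010 and 1409. The part that library preparation had in the higher counts of RN7SK, RMRP and these genes with TAM was not tested. Of 17 compared microRNA precursors, 5 were higher and 3 lower with TAM, and of 23 with Rg3, 8 were higher and 5 lower, beside the same shares of all genes. Of the 8, 7 had under 10 counts in control, and so did 2 of the 5 with TAM. Y and vault RNAs summed to 6, 10 and 8 counts. Among 233 rows with names of spliceosomal RNAs, 1 was compared, RNU86, with 52, 30 and 24 counts. RefSeq gives that name as a synonym of the C/D box snoRNA SNORD139, which the choice by name therefore missed. Its log2 fold change was -1.12 with Rg3 (95% interval -1.82 to -0.44) and -0.91 with TAM (-1.67 to -0.19).

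Of the 55 RNAs, 48 lay inside a gene of the table, in 33 host genes, and 20 of them in genes of ribosomal proteins. By GENCODE 29, 8 lay in introns of every transcript of the host and 40 overlapped an exon of at least one, in full or in part. Of the 40, 31 overlapped an exon of a transcript classed as a retained intron and 3 of these also one of a protein-coding transcript. The other 9 overlapped exons of other classes of noncoding transcript alone. Of the 50-base stretches, 0 of 15 in SNORD48 and 190 of 221 in SCARNA12 occur in transcripts of the host. Of 51 members with a sequence, 39 had every 50-base stretch in a transcript under another gene name and 8 had none. Other entries at the same place, such as RF00100 for RN7SK, are included in this. How reads that fall in both a snoRNA and its host were counted is not given in the sources used here.

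With Rg3, the log2 fold change of the host lay inside the 95% interval of the member for 40 of 45 members, and with TAM for 28 of 36. For TAM against Rg3 it did so for 38 of 44. These intervals are wide at such counts. Of members past the fold, the host was called in the same direction for 7 of 29 with Rg3, 5 of 19 with TAM and 16 of 29 for TAM against Rg3. Member and host differed in sign for 13 of 45 with Rg3 and 12 of 36 with TAM. Pearson's r between the log2 values of member and host was 0.47 with Rg3 (Spearman's rho 0.48), 0.43 with TAM (0.39) and 0.75 for TAM against Rg3 (0.70). These points share libraries, hosts and base composition, so that the correlations describe these members only.

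Members that overlapped exons of their hosts (exon members) and those in introns lay differently with TAM. For the 6 compared intron members, the member was below its host in 6 of 6, with a median difference of -1.23 on the log2 scale, and the value of the host lay inside the interval of 2. They were SNORD17, SNORD4A, SNORA5C, SNORD15B, SNORA73B and SNORA5A. SNORA5C, in TBRG4, had 13, 5 and 4 counts, and SNORD15B, in RPS3, had 10, 7 and 1. For the 30 exon members the median difference was -0.17 and the value of the host lay inside the interval of 26. With Rg3 the median differences were -0.31 for 7 intron members and 0.15 for 38 exon members. With so few reads behind the intron members, no difference between the groups of members can be drawn from these medians.

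**Figure D4:**
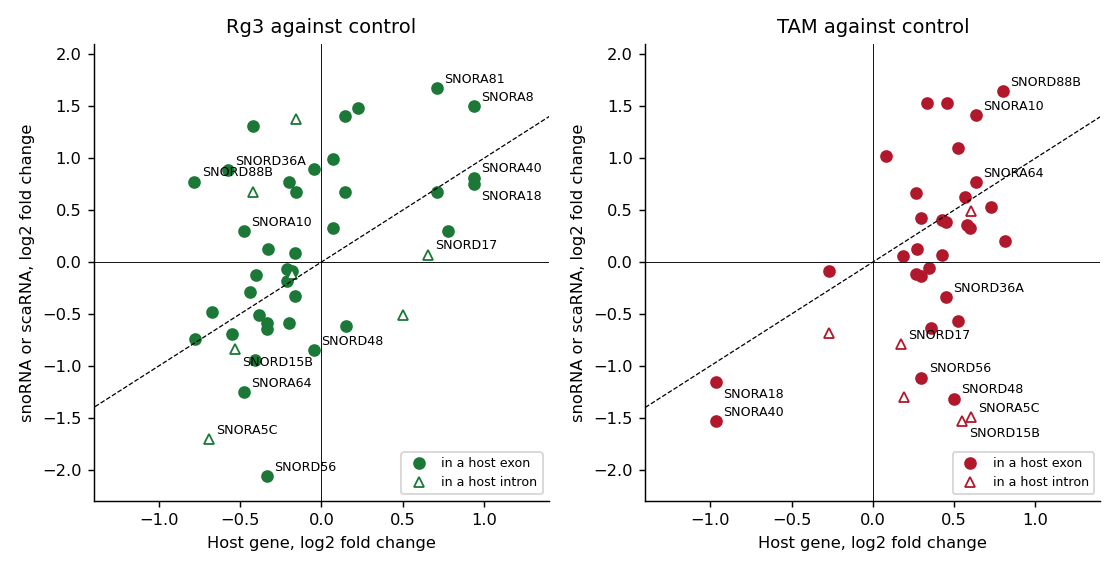
Log2 fold change of each snoRNA or scaRNA (vertical) against that of its host gene (horizontal) with Rg3 (left, 45 members) and TAM (right, 36 members). Filled circles are members that overlap a host exon, open triangles lie in host introns, and the dashed line marks equal values. With TAM all 6 triangles lie below the line, and SNORA18 and SNORA40 lie at the left with their host TAF1D at -0.97.

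Other hosts with several members gave mixed pictures. In NOP56, SNORD86, SNORD110 and SNORD56 summed to 83, 60 and 66 counts, with a log2 fold change of -0.79 with Rg3 (95% interval -1.299 to -0.30), beside -0.34 for the host. In TBRG4, SNORA5A and SNORA5C summed to 22, 11 and 15, with -1.33 for Rg3 (-2.52 to -0.22), beside -0.69. In both, the sum was farther below control with Rg3 than the host was, with intervals that reach the value of the host. In C6orf48, SNORD48 and SNORD52 summed to 29, 30 and 15, and in SNHG3, SNORA73A and SNORA73B summed to 24, 28 and 16. In SNHG1, SNORD29 and SNORD31 summed to 8, 22 and 5. Over 19 compared snoRNA host genes with names of that kind (SNHG and GAS5), 2 were higher and 1 lower with Rg3, and 6 were higher and 0 lower with TAM. Of all genes compared, 25.0% were higher and 19.5% lower with Rg3, and 17.4% and 23.8% with TAM. GAS5 had 656, 963 and 733 counts and was within the fold with both drugs. Its member SNORD80 had 4, 14 and 9.

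SNORD116 had 210 counts in control, 368 with Rg3 and 109 with TAM, so that the libraries ran from TAM up to Rg3. The log2 fold change was 0.48 with Rg3 (95% interval 0.23 to 0.73), short of the fold, and -0.74 with TAM (-1.09 to -0.40). SNORD116 is a family of copies in an imprinted cluster on chromosome 15, and the 30 rows with a copy number summed to 3, 11 and 1. Neighbours of the cluster were picked by name after their values were seen. IPW had 37, 80 and 17 counts, with 0.79 and -0.92, and SNRPN had 741, 902 and 934, with -0.04 and 0.54. IPW was thus ordered as SNORD116 over the libraries and SNRPN was not. What part of the cluster the SNORD116 row counts is not given in the sources used here.

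Base composition moved with these values. Over members with a sequence, Spearman's rho between GC content and log2 fold change was -0.38 with Rg3 (46 members), 0.48 with TAM (41) and 0.67 for TAM against Rg3 (47). Over the 11592, 11031 and 11604 genes with 50 or more counts it was -0.81, 0.51 and 0.78. Members and genes share the 3 libraries, so that these values describe them only. SNORA8, SNORA18, SNORA40 and SNORA81 have a GC content of 42.4%, 44.7%, 32.5% and 38.8%, while RN7SK, RMRP, RN7SL1 and RN7SL2 have 58.2%, 63.1%, 62.9% and 62.7%. With the trend over genes removed, RN7SK stayed at 3.69 and RMRP at 2.50 with TAM. RN7SL1, which was also short of the fold with TAM under library totals at 0.52, then stood at 0.32 with TAM and 1.05 with Rg3, and RN7SL2 at 0.78 and 1.33, so that the order of the drugs turned for both. SNORD35B, at 49.4% GC, stayed at 1.39 with Rg3 and 1.52 with TAM, and SNORA8 stood at 1.05 and SNORA81 at 0.99 with Rg3.

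**Figure D5:**
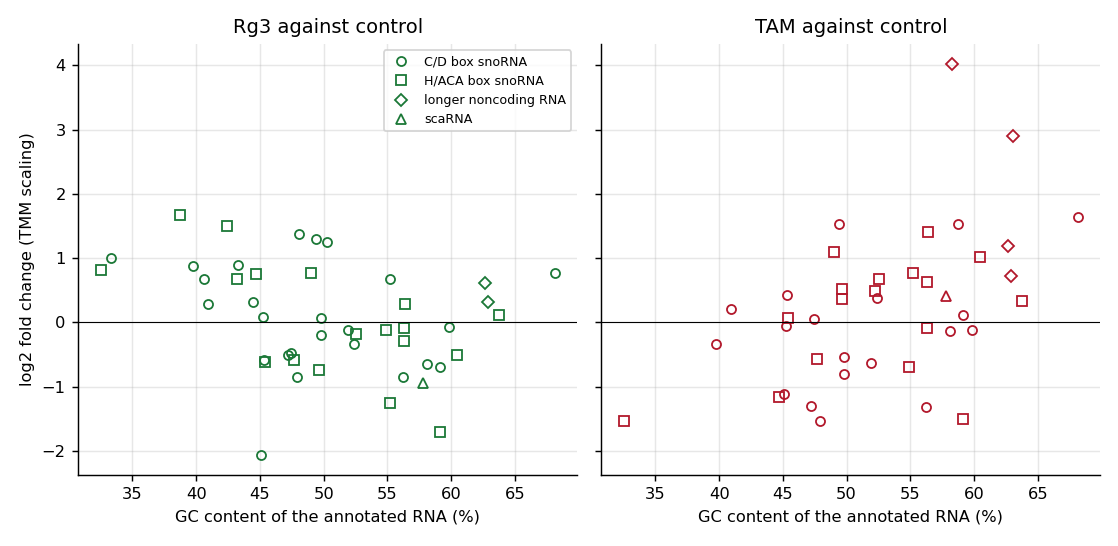
Log2 fold change of each compared member (vertical) against the GC content of its annotated RNA (horizontal, %) with Rg3 (left, 46 members) and TAM (right, 41 members); symbols give the class. Spearman's rho is -0.38 with Rg3 and 0.48 with TAM, and the 2 highest points with TAM are RN7SK at 58.2% GC and RMRP at 63.1%.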

How the data were processed

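RNA of PANC-1 cells was taken with TRIzol, cleaned on RNeasy columns and read on an Ion Proton, in 3 libraries of 1 condition each. The authors checked the reads with FAST-QC, aligned them with TopHat, assembled mapped reads with MAQ and deposited whole-number read counts per gene symbol, without normalization. The submitters' processing notes name GRCh38. The annotation, the counting tool, the use of strand and any selection of poly(A) RNA are not given in the sources used here.

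The 55 members and the gene lists were chosen with earlier results of these data known. Scaling used the TMM factors that edgeR 4.0.16 gave over all rows in R 4.3.3. A count of 0 to 2 was set to 3 before a fold was taken. With 1 library per condition no test between conditions exists, and the Limma criteria of the study could not be fitted, so that the fold of the study (over 1.5 or under 0.67) was kept. Exact 95% Clopper-Pearson intervals of the split of a gene's reads were computed with scipy 1.17.1 and cover counting error only. The depth was 11300766 to 12861693 counts per library. Positions, hosts and sequences came from GENCODE 29, and lengths and synonyms from RefSeq. A host contains the member on its strand, exons first and then the shortest gene.

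Named were the 4 longer members with RPPH1 and TERC, every member with 50 or more counts in a library, and in each comparison the 5 largest increases and decreases past the fold with 20 or more counts in either library. Their hosts were named too, with up to 4 genes of each list. SNORD3A, SNORD3D, the other members named with their hosts and the rows SNRPN, IPW, MIR1248 and RNU86 were chosen after their values were seen, as were further list genes beyond 4. Alternatives were library totals, size factors from DESeq2 1.42.0, filters of 1 or 50 counts or a mean of 10, 0.5 added to counts, loess trends (span 0.3) on GC content and length, other call rules, and members outside exons of other genes. The steps were tested on simulated data. Some genes and sequences are not reported here.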

Additional observations from a re-analysis of the deposited data

How the results depend on the processing

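No paired analysis was possible because a condition here is 1 library, and for the same cause no library could be left out. Counts of members past the fold, higher and lower, were 19 and 12 with Rg3, 13 and 11 with TAM, and 17 and 16 for TAM against Rg3. With the counting interval they were 6 and 4, 11 and 4, and 10 and 7. With the exact binomial test on the reads of 2 libraries, adjusted p under 0.05 by Benjamini-Hochberg, which compares libraries and not conditions, they were 5 and 3, 10 and 3, and 10 and 7. edgeR's exact test with an assumed coefficient of variation of 0.4 called 0 members in every comparison, and over all genes 1, lower, for each drug against control and 0 for TAM against Rg3. Members outside exons of other genes gave 3 and 2, 4 and 4, and 3 and 2, fewer members being compared. A minimum of 50 counts gave 1 and 1, 7 and 2, and 5 and 2, again over fewer members. All genes then gave 3131 and 2139 of 12594, 1928 and 2529 of 11921, and 3756 and 4539 of 12619. A mean of 10 counts over the libraries gave 9 of 36 higher with Rg3 and 8 of 36 lower for TAM against Rg3. Of all 15671 genes, 3735 and 5402 were so. With library totals 7 were lower with Rg3 and 11 higher for TAM against Rg3, beside 2321 of 16487 and 3105 of 16493 genes. With the GC trend removed, 12 of 46 members were higher with Rg3, beside 1582 of 14291 genes. For TAM against Rg3 10 of 47 were higher, beside 2081 of 14281 genes. With GC and length, 8 of 41 members were higher with TAM, beside 1800 of 14031 genes. For TAM against Rg3 10 of 47 were then higher, beside 2079 of 14281 genes. DESeq2 size factors and 0.5 added to counts left each of the main counts of members within 1.5 times. Of single values of named members under the scalings and trends, 23 took another sign, 19 of them within the fold under TMM and 4 past it, and 40 values of 12 members, the 4 included, were past the fold under TMM and short of it otherwise. The 4 were SNORA40 with Rg3 (-0.12 with GC, -0.091 with GC and length), SNORD86 with Rg3 (0.0017 with GC and length) and SNORA70 for TAM against Rg3 (-0.070 with GC and length). The list medians of C/D proteins (-0.049 and -0.25) and of telomerase and the Cajal body (-0.22 and -0.31) for TAM against Rg3 turned with GC and with GC and length. The cause was not tested. Depth limits most members, 32 of 55 having under 20 counts in every library.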

Other observations

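Mitochondrial ribosomal RNA, picked after its values were seen, can be set beside the longer RNAs. RNR1, the smaller of the mitochondrial ribosomal RNAs, had 4866 counts in control, 8567 with Rg3 and 9016 with TAM, with log2 fold changes of 0.49 with Rg3 and 1.10 with TAM. RNR2, the larger, had 26554, 57804 and 41390, with 0.80 and 0.85. Both were above control in both treated libraries, as RN7SL1 and RN7SL2 were. Of the mitochondrial mRNAs, ND1 and COX1 were looked at, also picked after their values were seen. Both were below control in both treated libraries, ND1 with 17857, 10966 and 14232 counts (-1.03 and -0.12) and COX1 with 83903, 52154 and 58518 (-1.01 and -0.31).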
